A study of Homo sapiens with 12 samples.

Results

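The subunits of the respiratory chain that are encoded in the nucleus were followed across LAPTM4B knockdown and serum withdrawal in a lung cancer cell line. Members were taken by symbol: array features with exactly 1 gene symbol that starts with NDUFA, NDUFB, NDUFC, NDUFS or NDUFV and a number, with UQCR, with COX4 to COX8 and a letter, or with ATP5F, ATP5M or ATP5P, or that is SDHA, SDHB, SDHC or SDHD. Where a gene had several features, the one with the highest mean over the 12 arrays stood for it. The rule found 87 features of 80 genes among the 18417 genes with such a feature, and 77 of the 80 are protein-coding: 33 of complex I, 3 of complex II, 7 of complex III, 17 of complex IV and 17 of complex V. All 77 entered the main fits, which used no filter on low values, and 75 remained where dim features were left out as an alternative. The rule itself uses no measured difference, but it was chosen with earlier results of these data known.

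The cells were Calu-6, an established human lung carcinoma line. They received a SMARTpool (a mixture of siRNAs) of either scrambled siRNA (siControl) or siRNA against LAPTM4B (siLAPTM4B), a lysosomal membrane protein. One day later all were washed and put into medium with 10% fetal bovine serum (FBS) or with 0% FBS. RNA was harvested at 72 h from transfection, 48 h into the new medium. Each of the 4 groups (siControl 10% FBS, siLAPTM4B 10% FBS, siControl 0% FBS and siLAPTM4B 0% FBS) had 3 biological replicates per the labels, each on its own Affymetrix Human Gene 1.0 ST array. All cells, the controls included, thus went through transfection with an siRNA, and 1 pool stands for the knockdown.

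The respiratory chain sits in the inner mitochondrial membrane. Complex I (NADH dehydrogenase) and complex II (succinate dehydrogenase) pass electrons to coenzyme Q, complex III passes them on to cytochrome c, and complex IV (cytochrome c oxidase) passes them to oxygen. Complexes I, III and IV pump protons, and complex V (ATP synthase) makes ATP as the protons flow back. Several of the catalytic subunits are encoded in mitochondrial DNA, so the nuclear genes supply the other core subunits, the accessory subunits and all of complex II.

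LAPTM4B itself was lower in all 6 siLAPTM4B arrays than in the siControl arrays of the same medium. Its log2 signal was 11.77 ± 0.024 (SD, n = 3) in siControl and 10.01 ± 0.024 in siLAPTM4B cells at 10% FBS, and 11.91 ± 0.037 and 10.49 ± 0.045 at 0% FBS. The log2 fold changes were -1.75 (SE 0.044, limma adjusted p = 6.4e-07) and -1.42 (SE 0.046, adjusted p = 8.6e-06), and the exact permutation test gave p = 0.1 in each medium, the smallest two-sided value that 3 arrays against 3 allow. Arrays of a group correlated at 0.998 to 0.999, and 0 pairs were identical. Of the epithelial markers, KRT8 and KRT18 had mean signals of 12.2 to 13.0 in every group, while CDH1 was at 6.17 to 6.26, near the lower quartile of all features (6.17).

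Over the 77 subunits the level was highest in siControl cells with serum and lowest in siLAPTM4B cells without. For each array, the median over the subunits was taken of the log2 signal minus that gene's mean over the 12 arrays. It was 0.087 ± 0.014 (SD, n = 3) in siControl 10% FBS, 0.030 ± 0.025 in siLAPTM4B 10% FBS, -0.041 ± 0.021 in siControl 0% FBS and -0.080 ± 0.0096 in siLAPTM4B 0% FBS. The 4 groups did not overlap, and the 6 arrays with serum all lay above the 6 without. By complex, the 4 groups stayed apart in complex V alone. In complex I the 2 siRNA groups overlapped within each medium while the media stayed apart, and in complexes II, III and IV arrays with and without serum overlapped, the siLAPTM4B 10% FBS arrays of complex III spreading from -0.03 to 0.12. In bulk RNA a lower level in every cell cannot be told apart from a larger drop in some of the cells.

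**Figure D1:**
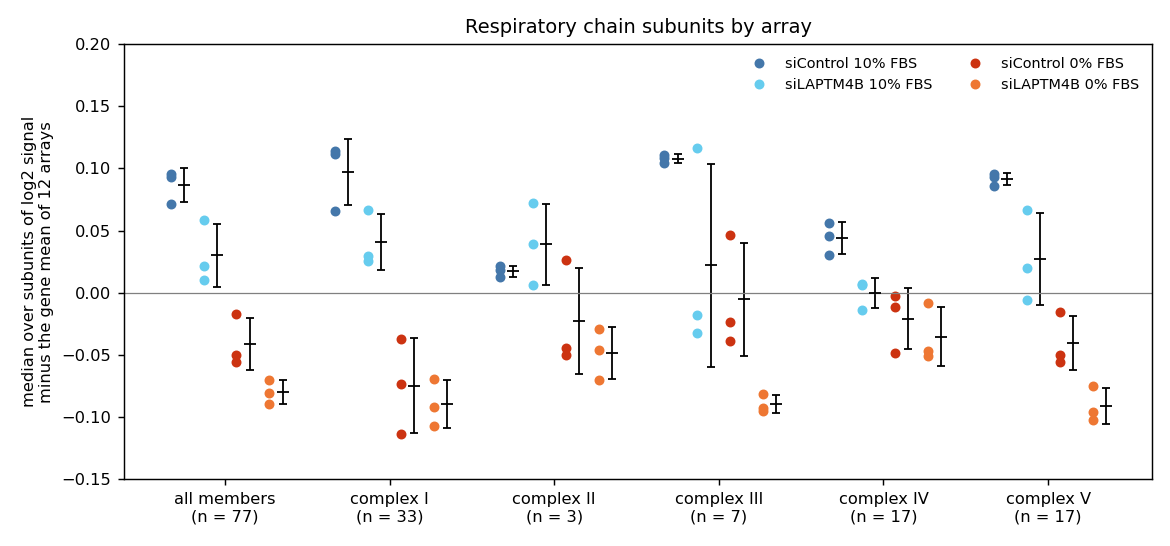
Median over the subunits of the log2 signal minus each gene's mean over the 12 arrays (y axis), for all 77 members and for each complex (x axis). Points are arrays, black marks the mean and SD of 3 arrays; for all members the siControl 10% FBS arrays lie at 0.071 to 0.096 and the siLAPTM4B 0% FBS arrays at -0.089 to -0.070, while of the single complexes only V keeps the 4 groups apart.

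The first comparison asked what serum withdrawal did in siControl cells. Of the 77 subunits, 30 were called lower and 0 higher (limma adjusted p under 0.05), where 12.9% of all 19460 features tested were called lower. The estimate was negative for 70 of 77, against 55.0% of all features, and the median log2 fold change was -0.13, against -0.02 over all features. The 3 arrays of the 2 media did not overlap, with 0% FBS lower, for 46 subunits, against 21.6% of all features. Since most subunits give bright features, the share was also taken with dim features left out: 32 of 75 subunits were then called lower, against 15.7% of all. The count was 19 with all features of the array tested, a fit whose share of all features called is not given. The count also depended on single arrays. Without siControl 10% FBS replicate 2 it was 18, where 8.65% of all features were called lower. Without siControl 0% FBS replicate 2 it was 20, against 9.07%.

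Complex I held 15 of the 30 calls, among 33 subunits. The strongest falls were in NDUFS8 and NDUFS7, core subunits that carry iron-sulfur clusters on the way to coenzyme Q. NDUFS8 read 10.94, 10.86 and 10.77 (log2 signal) with serum and 10.33, 10.39 and 10.49 without. NDUFS7 read 11.02, 11.01 and 11.02 with serum and 10.52, 10.60 and 10.60 without. The groups were apart for both genes. The log2 fold changes were -0.45 (SE 0.059, limma adjusted p = 0.00087) and -0.44 (SE 0.041, adjusted p = 0.00012), so that the signal of NDUFS8 fell by 26.8% and that of NDUFS7 fell by 26.2%.

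Accessory subunits of complex I fell as well. NDUFA2 read 11.06, 11.09 and 11.07 with serum and 10.70, 10.69 and 10.71 without, a log2 fold change of -0.37 (SE 0.037, limma adjusted p = 0.00019), with a spread of about 0.01 in each group. NDUFA3 fell by 0.32 on the log2 scale, from 11.72 ± 0.012 to 11.40 ± 0.036. NDUFV3 fell by 0.30 and NDUFC1 by 0.29, and NDUFC1 lost its call without siControl 10% FBS replicate 2 (limma adjusted p = 0.054). NDUFA8, a subunit on the intermembrane side, fell by 0.25 (adjusted p = 0.0073). The drop was not shared by all of complex I: the iron-sulfur subunit NDUFS1 (-0.01, 95% interval -0.11 to 0.08) and the accessory subunit NDUFA1 (-0.01, -0.12 to 0.10) were not called, and neither was NDUFS3 (-0.19, adjusted p = 0.059). By symbol, the calls were 4 of 12 NDUFA, 6 of 11 NDUFB, 1 of 1 NDUFC, 3 of 6 NDUFS and 1 of 3 NDUFV genes, and by role 2 of 6 core and 13 of 27 accessory subunits.

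In complex II the membrane anchor SDHD fell by 0.20 on the log2 scale (limma adjusted p = 0.0061), from 12.36, 12.35 and 12.39 to 12.19, 12.16 and 12.15. The flavoprotein SDHA read 12.62, 12.61 and 12.60 with serum and 12.67, 12.61 and 12.58 without, and its arrays overlapped (0.01, 95% interval -0.09 to 0.10). The other anchor, SDHC, was not called either (-0.02). The features used for both anchors leave doubt about the locus, as given below. In complex III only UQCR10, a small accessory subunit, was called among 7 (-0.16, limma adjusted p = 0.030), although 6 of 7 estimates were negative. That share of calls (14.3%) is near the 12.9% of all features called lower.

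In complex IV 5 of 17 subunits were called lower. COX7B, a small accessory subunit, read 11.11, 11.21 and 11.10 with serum and 10.74, 10.79 and 10.90 without, a log2 fold change of -0.33 (SE 0.054, limma adjusted p = 0.0028). The other 4 were COX8A (-0.19), COX7C (-0.18), COX5A (-0.16) and COX5B (-0.15). COX4I1, which binds adenine nucleotides, and COX6A1 were not called, at -0.03 and -0.02. In complex V 8 of 17 were called lower. The largest fall was in ATP5F1D, the delta subunit of the central stalk, which read 11.75, 11.74 and 11.61 with serum and 11.35, 11.38 and 11.35 without (-0.34, SE 0.049, adjusted p = 0.0014). ATP5PO (-0.23) and ATP5PF (-0.21), both of the peripheral stalk, and ATP5MC1 (-0.17), a gene of the proton-carrying c ring, were also called. The catalytic head subunits ATP5F1A (0.00, 95% interval -0.11 to 0.11) and ATP5F1B (-0.01, -0.11 to 0.08) were not.

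**Figure D2:**
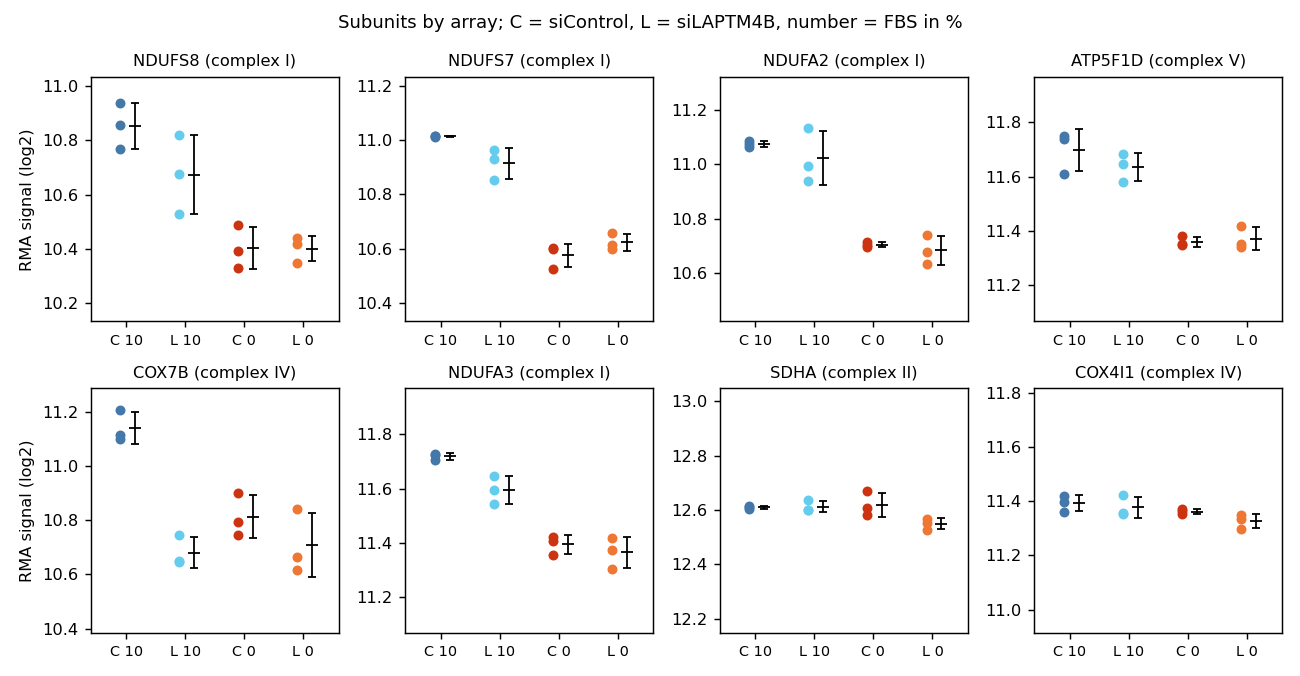
Log2 RMA signal (y axis, each panel 0.9 log2 units tall) of 8 subunits in the 12 arrays, by group (x axis; C is siControl, L is siLAPTM4B, the number is FBS in %). Points are arrays and black marks the mean and SD; NDUFS8, NDUFS7, NDUFA2, ATP5F1D and NDUFA3 drop without serum in both siRNA groups, COX7B is high in siControl 10% FBS alone, and SDHA and COX4I1 stay within 0.15 over all arrays.

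Serum withdrawal was then compared in siLAPTM4B cells, whose 6 arrays are not shared with the siControl comparison. Here 17 of 77 subunits were called lower and 0 higher, where 11.0% of all features were called lower. Estimates were negative for 66, against 52.0% of all features, and the median was -0.11, against -0.01. For 48 subunits the 3 arrays without serum all lay below the 3 with serum, against 19.7% of all features. With dim features left out, 21 of 75 were called lower, against 13.3% of all. The call count moved with the fit, being 36 with limma's trended, robust prior, 28 in 1 fit of all 12 arrays and 10 with all features of the array tested. The shares of all features called by these fits are not given, so these counts do not set the subunits apart from other features. It was also sensitive to siLAPTM4B 0% FBS replicate 2, without which 6 subunits were called, and it was 10 to 12 without any 1 of the other arrays.

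Of these 17 calls, 11 were in complex I. NDUFA2 read 10.94, 11.13 and 11.00 with serum and 10.63, 10.74 and 10.68 without, a log2 fold change of -0.34 (SE 0.062, limma adjusted p = 0.0039). NDUFC1 fell by 0.31 (adjusted p = 0.0035), NDUFS7 by 0.29 (adjusted p = 0.0032), NDUFB5 by 0.29 (adjusted p = 0.012) and NDUFS3 by 0.24 (adjusted p = 0.018). NDUFS8 fell by 0.27 (SE 0.073, adjusted p = 0.027), and its call was lost when any 1 of 5 of the 6 arrays was left out, all but siLAPTM4B 10% FBS replicate 2 (adjusted p 0.051 to 0.080). NDUFS3 lost its call without siLAPTM4B 0% FBS replicate 2 (adjusted p = 0.075) and without siLAPTM4B 10% FBS replicate 2 (0.053).

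Outside complex I, ATP5F1D fell again, from 11.68, 11.58 and 11.65 to 11.42, 11.35 and 11.34 (-0.27, SE 0.052, limma adjusted p = 0.0054), with ATP5PF (-0.22) and ATP5MC1 (-0.20). UQCRC2, a core protein of complex III, fell by 0.24 (adjusted p = 0.0059), from 11.65, 11.70 and 11.68 to 11.45, 11.39 and 11.46. In complex IV COX6C (-0.24) and COX7C (-0.20) were called. The shares called in complexes III (14.3%) and IV (11.8%) are near the 11.0% of all features called lower. None of the 3 complex II subunits was called: SDHD was at -0.16 (adjusted p = 0.077). UQCRB, which binds coenzyme Q in complex III, had a large estimate of -0.32 with a wide spread and was not called (adjusted p = 0.055).

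**Figure D3:**
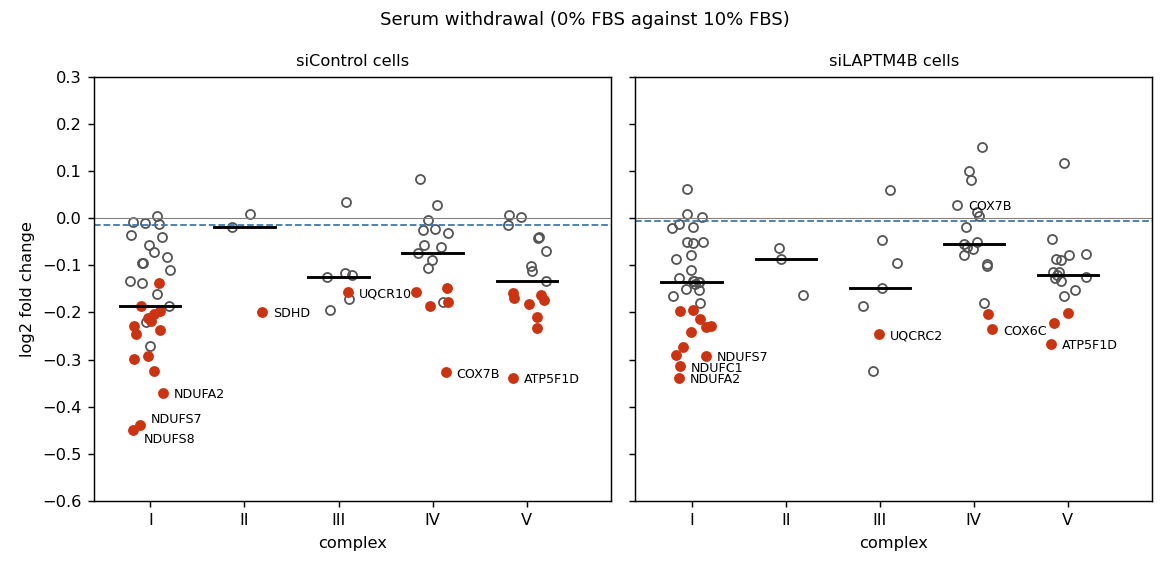
Log2 fold change (y axis) of 0% FBS against 10% FBS for the 77 subunits by complex (x axis), in siControl cells (left) and siLAPTM4B cells (right). Each circle is a gene, filled red where limma's adjusted p was under 0.05; black bars are medians of a complex and the dashed line is the median of all 19460 features; 30 subunits are filled on the left and 17 on the right, all below 0.

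In both siRNA groups 13 subunits were called lower, 43.3% of the siControl calls and 76.5% of the siLAPTM4B calls. Of all features 7.63% were called lower in both, which is 59.3% of all siControl and 69.6% of all siLAPTM4B calls of lower signal. They were NDUFA2, NDUFA3, NDUFA8, NDUFB5, NDUFB9, NDUFC1, NDUFS7, NDUFS8 and NDUFV3 of complex I, COX7C of complex IV, and ATP5F1D, ATP5MC1 and ATP5PF of complex V. The estimate was negative in both groups for 63 of 77, against 38.8% of all features. A further 17 subunits passed the threshold in siControl and not in siLAPTM4B cells, and 4 the other way round (NDUFB1, NDUFS3, UQCRC2 and COX6C). These lists do not show a difference between the groups, which is the interaction given below.

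Nuclear respiratory chain genes are known for promoters that bind NRF1, GABPA (an ETS factor) and YY1, so the RefSeq windows from 250 bases before to 50 bases after each start were searched on both strands (GRCh38.p14). Windows were held for 65 of the 77 members. The NRF1 letters (GCGCA, any base, GCGC) were in 24.6% of them, against 8.58% of the 15843 windows of coding genes. The ETS letters CCGGAAGT were in 15.4%, against 6.19%, and the YY1 letters AAGATGGC in 15.4%, against 3.91%. Between the 27 members called lower on serum withdrawal in siControl cells and the 38 that were not, the shares were 25.9% and 23.7% for NRF1, 11.1% and 18.4% for ETS, and 25.9% and 7.89% for YY1. No test was run on these shares, and a match of letters is not a bound site. The 3 letter sets do not overlap one another in the stretches that follow.

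The stretches that follow lie wholly before the start of members called lower in siControl cells, and SDHA, which was not, is given for contrast. All are written in the gene's direction from 5′ to 3′, with the matches in capitals.
NDUFA3 (complex I, chr19:54102770-54102803, + strand, NRF1): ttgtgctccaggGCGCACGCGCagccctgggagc
SDHD (complex II, chr11:112086751-112086814, + strand, NRF1 and ETS): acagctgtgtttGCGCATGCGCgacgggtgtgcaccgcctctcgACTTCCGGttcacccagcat
COX5B (complex IV, chr2:97646013-97646044, + strand, ETS): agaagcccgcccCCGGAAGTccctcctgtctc
COX8A (complex IV, chr11:63974589-63974619, + strand, ETS): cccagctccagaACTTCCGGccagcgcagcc
ATP5PO (complex V, chr21:33915807-33915840, - strand, NRF1): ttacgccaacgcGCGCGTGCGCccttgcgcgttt
ATP5PF (complex V, chr21:25735092-25735123, - strand, YY1): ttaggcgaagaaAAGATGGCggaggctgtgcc
ATP5ME (complex V, chr4:674429-674507, - strand, NRF1): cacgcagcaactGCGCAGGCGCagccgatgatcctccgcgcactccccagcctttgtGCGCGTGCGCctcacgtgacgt
SDHA (complex II, chr5:218142-218319, + strand, NRF1): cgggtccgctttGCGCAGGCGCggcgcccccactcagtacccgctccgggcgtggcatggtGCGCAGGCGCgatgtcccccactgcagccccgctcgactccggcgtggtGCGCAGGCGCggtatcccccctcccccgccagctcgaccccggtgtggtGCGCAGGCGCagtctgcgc
SDHA held 4 NRF1 matches, with starts 49 bases apart each time, and its signal did not differ between the media in siControl cells beyond the spread of the arrays. The SDHD match reads as NRF1 on both strands, since its letters are their own reverse complement.

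The factors themselves were measured too. In siControl cells NRF1 was at -0.14 on serum withdrawal (limma adjusted p = 0.059), GABPA at 0.01 and YY1 at -0.02, and 0 of these 3 were called in either siRNA group. The feature that stood for GABPA may lie at another locus than the gene. Of the 12 regulators of mitochondrial biogenesis, MYC (0.24, adjusted p = 0.0098) and TFB1M (0.19, adjusted p = 0.033), a mitochondrial rRNA methyltransferase, rose in siControl cells, where 13.2% of all features were called higher. PPARGC1A, the coactivator PGC-1 alpha, was the 1 regulator of the 12 that fell in siLAPTM4B cells (-0.22, adjusted p = 0.021; 11.0% of all features were called lower), with an estimate of -0.17 (adjusted p = 0.075) in siControl cells.

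LAPTM4B knockdown at 0% FBS called 0 of the 77 subunits in limma, where 1.74% of all features were called lower and 0.591% higher. Without adjustment (limma p under 0.05) 2 subunits were higher, against 6.47% of all features, and 7 were lower, against 8.62%. The median was -0.03, against 0.01 over all features, with 57 of 77 estimates negative (46.5% of all features). The 95% interval lay within ±0.25 for 69 subunits and within ±0.5 for all 77. The most negative estimates were in complex III: UQCRH read 9.27, 9.15 and 9.39 in siControl and 8.91, 9.14 and 9.08 in siLAPTM4B cells (-0.23, limma adjusted p = 0.21), and UQCRB was also at -0.23 (adjusted p = 0.25). These 2 genes were picked after their values were seen.

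LAPTM4B knockdown at 10% FBS called 1 subunit, COX7B, where 2.09% of all features were called lower and 1.99% higher. Without adjustment (limma p under 0.05) 15 subunits were lower, against 8.48% of all features, and 0 higher, against 9.76%. COX7B read 11.11, 11.21 and 11.10 in siControl and 10.64, 10.65 and 10.75 in siLAPTM4B cells. The groups were apart, with a log2 fold change of -0.46 (SE 0.052, limma adjusted p = 0.0032), so that the signal fell by 27.3%. The call held without any 1 of the 6 arrays, and the methods' t-test gave it a Benjamini-Hochberg adjusted p of 0.058. Of all 77 subunits, 57 had a negative estimate (48.1% of all features) and the median was -0.06, against 0.00. Their 95% intervals lay within ±0.25 for 64. With limma's trended, robust prior 11 subunits were called at 10% FBS and 2 at 0% FBS. The share of all features called with that prior is not given, so these counts do not set the subunits apart from other features. The siControl 10% FBS arrays serve in this comparison and in serum withdrawal of siControl cells, so the COX7B values of these comparisons share 3 arrays.

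**Figure D4:**
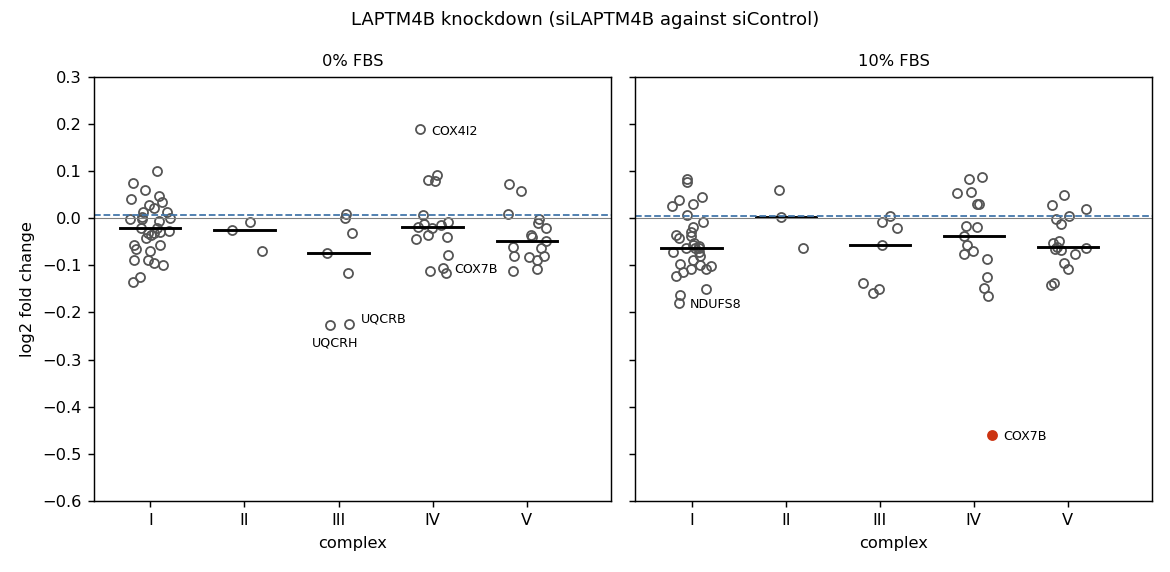
Log2 fold change (y axis) of siLAPTM4B against siControl for the 77 subunits by complex (x axis), at 0% FBS (left) and 10% FBS (right). Each circle is a gene, filled red where limma's adjusted p was under 0.05, black bars are medians and the dashed line is the median of all features; COX7B at -0.46 is the 1 filled point, and all other estimates lie between -0.23 and 0.19.

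The interaction asked whether the knockdown effect differed between the media, which is the same as asking whether serum withdrawal acted differently in siLAPTM4B and siControl cells. In limma 0 of 77 subunits were called, where 0.0719% of all features were called higher and 0.190% lower, and without adjustment (p under 0.05) 5 were higher, against 4.47% of all, and 0 lower, against 6.49%. COX7B had the largest estimate, 0.36 (SE 0.089, 95% interval 0.16 to 0.55, adjusted p = 0.15). It was at 10.71 ± 0.12 in siLAPTM4B 0% FBS, against 10.68 ± 0.057 in siLAPTM4B 10% FBS and 10.81 ± 0.079 in siControl 0% FBS, so the siControl 10% FBS arrays alone stood apart. Its adjusted p was 0.029 with limma's trended, robust prior and 0.10 to 0.32 under the other adjusted alternatives. NDUFS7 had an estimate of 0.15 (adjusted p = 0.39) and NDUFS8 of 0.18 (adjusted p = 0.56). The interval of the interaction lay within ±0.25 for 52 of 77 subunits and within ±0.5 for 74.

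Complex IV has tissue-specific or alternative isoforms, and 6 of them were among the members: COX4I2, COX6A2, COX6B2, COX7A1, COX7B2 and COX8C. None was called in any of the 5 comparisons in limma, and without adjustment 2 passed 0.05. These were COX4I2 on knockdown at 0% FBS (a log2 fold change of 0.19, adjusted p = 0.29 in limma) and COX7B2 on serum withdrawal in siLAPTM4B cells (-0.18, adjusted p = 0.091 in limma). COX4I2, an isoform linked to low oxygen, read 7.24, 7.15 and 7.08 in siControl 0% FBS and 7.51, 7.24 and 7.30 in siLAPTM4B 0% FBS, and the groups overlapped. All 5 complex IV calls of siControl cells and both calls of siLAPTM4B cells were among the other 11 subunits. Most isoforms were much dimmer, however. Over all arrays COX7B2 and COX8C had mean signals of 5.85 and 6.13, below the lower quartile of all features (6.17). COX6B2, COX7A1, COX4I2 and COX6A2 were at 6.61, 6.81, 7.24 and 8.46, and the other 11 subunits at 9.74 to 13.14. The absence of calls among the isoforms therefore cannot tell a steady level from a signal too low to show a change.

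Some features leave doubt about the gene measured. Of 7 protein-coding members with several features, SDHD had a second, dimmer feature that was called lower in siControl cells as well (-0.15, limma adjusted p = 0.039). NDUFS4 was called on its brighter feature (-0.20, adjusted p = 0.046) and was at -0.06 (adjusted p = 0.72) on the other. ATP5MK was not called on its brighter feature (-0.04, adjusted p = 0.55) but was on the other (-0.14, adjusted p = 0.027). NDUFB4 has 2 features with the same values. Many of these genes have processed pseudogenes, whose transcripts the probes may share. By their numbers, the features used for SDHC, SDHD and ATP5MK lie among features of genes on other chromosomes. They may therefore measure pseudogenes, which was not tested. The same doubt holds for the features of GABPA and EPCAM. SDHC was called on neither of its 2 features in siControl cells (-0.02 and 0.01). Of the 3 other matches of the rule, the pseudogene UQCRBP1 was called lower on serum withdrawal in siControl (-0.22, adjusted p = 0.047) and siLAPTM4B cells (-0.16, adjusted p = 0.043), while the pseudogene ATP5F1EP2 and the noncoding NDUFV1-DT were not called. A further 6 coding genes that fit the rule lay only on features with several symbols and were left out.

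Genes that build or feed the chain were counted from lists written with earlier results of these data known. The shares of all features to set beside these counts on serum withdrawal in siControl cells are 12.9% called lower and 13.2% called higher. On serum withdrawal in siControl cells, all 3 subunits with other symbols were called lower: NDUFAB1, the acyl carrier protein of complex I, by 0.24, CYC1, cytochrome c1 of complex III, by 0.19, and ATP5IF1, the inhibitor of complex V, by 0.23. Of the complex I assembly factors, 5 of 15 were called lower (TIMMDC1 -0.36, NUBPL -0.30 and COA1 -0.28) and 1 higher (NDUFAF6, 0.32). Of the complex III assembly factors, 3 of 6 were called lower, led by BCS1L, which inserts the Rieske protein (-0.45, SE 0.041, limma adjusted p = 0.00011), and 1 higher (TTC19, 0.19). Of the complex IV assembly factors, 8 of 16 were called lower and 0 higher, among them COX10 (-0.34) and COX15 (-0.28), which make heme A, and COA3 (-0.29). Of the 3 assembly factors each of complexes II and V none was called in limma. Without adjustment (p under 0.05) 0 and 2 were lower, and the share of all features at that threshold is not given.

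In siLAPTM4B cells 11.0% of all features were called lower and 9.74% higher. There 6 of 15 complex I assembly factors were called lower (NUBPL -0.53, TIMMDC1 -0.47 and NDUFAF1 -0.43) and NDUFAF6 higher (0.30). For complex III it was 3 of 6, with BCS1L at -0.47, and for complex IV 7 of 16, with COX15 at -0.42, COX10 at -0.40 and COX18 at -0.37. For complexes II and V it was 1 of 3 each, lists too short to set against the share of all features. Of 13 genes of electron carriers and coenzyme Q synthesis, 5 were called lower in siControl and 7 in siLAPTM4B cells, against 12.9% and 11.0% of all features. COQ3, a methyltransferase of that pathway, was at -0.30 and -0.58. COQ10B was called higher in siControl cells (0.34).

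Of the mitochondrial ribosome genes, 26 of 74 were called lower in siControl and 19 in siLAPTM4B cells, with MRPL40 lowest at -0.43 and -0.37. The 1 called higher in each was the pseudogene MRPS31P5. For this list and the import and TCA cycle lists, the shares of all features called lower are 12.9% in siControl and 11.0% in siLAPTM4B cells. Of 21 import genes, 7 and 5 were called lower, and TIMM23 rose in siLAPTM4B cells (0.51, adjusted p = 0.044). Of 15 genes of the TCA cycle and pyruvate entry, 3 and 4 were called lower, PDHX being at -0.42 and -0.45 and SUCLG1 at -0.34 and -0.28. SUCLG2, the GTP-forming partner, rose in siControl cells (0.26). Of 17 glycolysis genes, 4 were called higher in siControl cells and 5 in siLAPTM4B cells and 0 lower, against 13.2% and 9.74% of all features called higher, and the medians of the list were 0.04 and 0.05: HK2 was at 0.86 and 0.97, and ENO2 at 0.95 and 0.88.

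**Figure D5:**
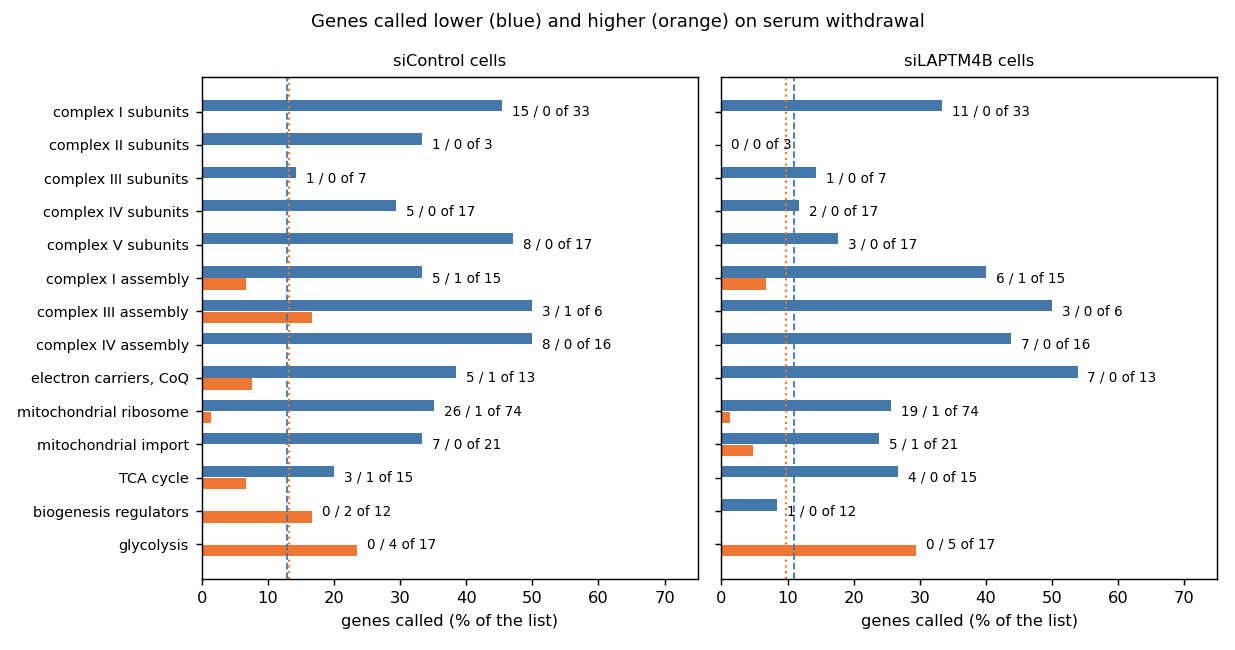
Share of each gene list called lower (blue) and higher (orange) on serum withdrawal (x axis, % of the list) in siControl (left) and siLAPTM4B cells (right); numbers give genes lower / higher of those measured. The dashed blue line is the share of all features called lower (12.9% and 11.0%) and the dotted orange line the share called higher (13.2% and 9.74%); the complex I bar stands at 15 of 33 and 11 of 33, and the glycolysis list has orange bars and no blue one.

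Markers of other cell types moved with serum as well. Beside them, 12.9% of all features were called lower and 13.2% higher in siControl cells, and 11.0% and 9.74% in siLAPTM4B cells. Of 6 fibroblast markers LUM (-1.87 in siControl and -1.85 in siLAPTM4B cells) and PDGFRB (-1.19 and -1.23) were called lower on serum withdrawal and the other 4 (COL1A1, COL1A2, COL3A1 and DCN) were not, 3 of 5 leukocyte markers were called (CD68 and CD14 lower, LYZ higher), and 0 of 4 endothelial markers. Of the epithelial markers KRT7 fell (-1.63 and -1.90) and EPCAM rose (1.09 and 0.79), the EPCAM feature being in doubt as given above. Their part in the shift of the subunits was not tested.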

How the data were processed

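Each of 12 arrays, 3 per group, has a deposited log2 signal per feature. The authors computed it in BRB-ArrayTools with RMA, which corrects for background, gives all arrays the same quantiles and summarises the probes of each feature. RMA equalises the distribution of all arrays, so a change shared by most transcripts would not be seen. They were used as deposited and run from 3.37 to 14.8. The number of arrays limits the precision.

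The members and gene lists were chosen with earlier results of these data known. limma 3.58.1 (R 4.3.3) was fitted to the 6 arrays of each comparison, or to all 12 for the interaction, over the 19460 features with exactly 1 symbol, with Benjamini-Hochberg adjustment and calls at an adjusted p under 0.05. It was tested on simulated data. The study names a p under 0.01 and, for its experiments in general, Student's test, called the methods' t-test here. Genes named are the 8 called members with the largest change in each direction and comparison, the isoforms, the regulators and up to 3 called genes per list, direction and comparison, with further members as examples of their complex.

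The labels call the replicates biological, and whether each was a separate transfection is not given in the sources used here, so p-values measure the spread between these samples. Replicate numbers were not blocked in the main fits. Same-numbered arrays deviated together from their group means, with correlations over 0.1 for all 3 numbers between the siControl media (0.37, 0.13 and 0.20), but not in the other 3 pairs of groups compared.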

Additional observations from a re-analysis of the deposited data

How the results depend on the processing

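Serum withdrawal lowered subunits, and raised none, in every alternative run. In siControl cells the count of 30 was 19 with all features tested. It was 23 with arrays centred on their median, which moved the median over the subunits from -0.13 to -0.11. It was 18 to 28 when 1 array was left out (median -0.16 to -0.12), where 8.65% to 11.2% of all features were called lower. In siLAPTM4B cells the count of 17 was 10 with all features tested, 36 with limma's trended, robust prior and 28 in 1 fit of all 12 arrays. It was 6 to 12 when 1 array was left out (median -0.12 to -0.095), where 7.16% to 9.42% of all features were called lower. The count of 6 came with the share of 7.16% and is near it. COX7B there was at 0.03, ran from -0.039 to 0.074 when 1 array was left out, and was negative without siLAPTM4B 0% FBS replicate 2. The knockdown count at 0% FBS was 2 with the trend and robust prior, 1 at an unadjusted limma p under 0.01 and 3 with the methods' t-test at that threshold, and at 10% FBS these were 11, 2 and 5. For the interaction the first 2 were 1 and 1, and centring moved its median from 0.02 to 0.00 (0.0032). After Benjamini-Hochberg the methods' t-test gave 0 and 1 for the knockdown, and the 1 was not COX7B. For serum withdrawal it gave 24 in siControl and 14 in siLAPTM4B cells. With the replicate number as a block, 34 and 18 subunits were called lower on serum withdrawal, 1 and 0 on knockdown at 10% and 0% FBS and 0 for the interaction, and no named member changed its call. The causes of these shifts were not tested. Apart from leaving out 1 array, the alternative counts in this paragraph come without the share of all features called by the same fit. They do not show how the subunits compare with other features. With 3 arrays a group, changes of under about 0.15 on the log2 scale were mostly not called.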
